A study of Mus musculus with 16 samples.

Results

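Transcript levels of 7 genes of acid-base transport were followed in the mouse stomach: the sodium-proton exchangers Slc9a2, Slc9a3 and Slc9a4, the anion exchanger Slc4a2, the chloride cotransporter Slc12a2, and the carbonic anhydrases Car2 and Car9. They were taken by symbol from a count table of 24964 genes. Of these genes, 6 were chosen for their function in gastric epithelium, and Slc9a3 was chosen by its measured level in these libraries, which in TTP-A was below that of WT-A. For Slc9a3, therefore, only the comparison of TTP-S with WT-S, which holds none of those libraries, was tested, and its other fold changes are a description. All 7 genes passed the filter on low counts, which kept 15385 genes.

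Biopsies of 4 mm were taken from the corpus at its lesser curvature in female mice 8 weeks old, and 4 libraries were sequenced for each of 4 groups. WT-S and WT-A were wild-type C57BL/6 mice, and TTP-S and TTP-A were congenic C57BL/6 mice of the genotype TTPΔARE, in which the transcript of Zfp36 is without its AU-rich element. Tristetraprolin (TTP), the product of Zfp36, binds AU-rich elements and promotes the decay of transcripts. The treatment of the A groups was adrenalectomy, surgery that takes out the adrenals, and the label ties it to inflammation of the stomach. The label of both S groups gives SPEM, spasmolytic polypeptide-expressing metaplasia, which is a mucous lineage of injured corpus glands, and whether S mice were operated on is not said. Levels of SPEM and mucous neck markers, most of which had lower means in S than in A, are given below. The labels do not say whether each library is a separate mouse, so p-values measure only the spread between these samples, which may be technical.

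Acid secretion moves ions across both faces of the parietal cell. Carbonic anhydrase turns carbon dioxide and water into a proton and bicarbonate, the proton pump sends the proton into the lumen, and bicarbonate leaves across the basolateral membrane through Slc4a2 (AE2) in exchange for chloride. Basolateral sodium-proton exchangers and cotransporters balance pH, sodium and chloride, and surface cells secrete bicarbonate that shields the mucosa.

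The libraries held 17453930 to 25849472 counts. Summed markers of parietal cells (17200 to 26600 CPM), chief cells (47200 to 150000 CPM) and surface mucous cells (34400 to 68800 CPM) were abundant in every library, though the chief marker Lipf was at 0. CPM (counts-per-million) is a gene count divided by its TMM-scaled library total (trimmed mean of M-values). Zfp36 was at 62.0 ± 4.73 CPM in WT-S and 72.0 ± 11.9 in WT-A, and higher in both TTPΔARE groups, at 122 ± 6.11 (TTP-S) and 123 ± 9.54 CPM (TTP-A; SD, n = 4). GC-rich transcripts ran high and GC-poor ones low in WT-A 3 and WT-A 4 (Spearman rho of deviation on GC content over 11493 genes, 0.72 and 0.74). In the other 14 the absolute rho was at most 0.30. This pair belongs to WT-A alone, so the tested differences of WT-A are also given for the other 14 libraries where they bear on the result. Those of Slc12a2, Slc9a4, Slc4a2 and Slc9a2 moved. The 14 hold only 2 WT-A libraries, so in a moved call the smaller group and the missing pair cannot be told apart. These are bulk samples, in which fewer cells of a type and less RNA per cell cannot be told apart.

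The levels of the 7 genes spanned a wide range. Per kilobase of the longest annotated transcript, Car2 stood first in WT-S at 1127 ± 229 CPM per kb, followed by Slc4a2 (178 ± 4.55), Car9 (125 ± 22.4), Slc9a4 (77.4 ± 2.77), Slc12a2 (60.6 ± 7.23), Slc9a2 (31.1 ± 1.97) and Slc9a3 (1.51 ± 1.65; SD, n = 4). The ranges of neighbours in this order did not overlap in WT-S. The order of the means was the same in all 4 groups. In WT-A the ranges of Slc4a2 and Car9, of Slc12a2 and Slc9a2, and of Slc9a2 and Slc9a3 overlapped, and in TTP-S those of Slc9a4 and Slc12a2. Slc9a3 was thus last in every group, but its distance from Slc9a2 differed: 16.6 ± 6.37 against 27.1 ± 2.60 CPM per kb in WT-A, and 0.207 ± 0.115 against 31.7 ± 1.35 in TTP-S.

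**Figure D1:**
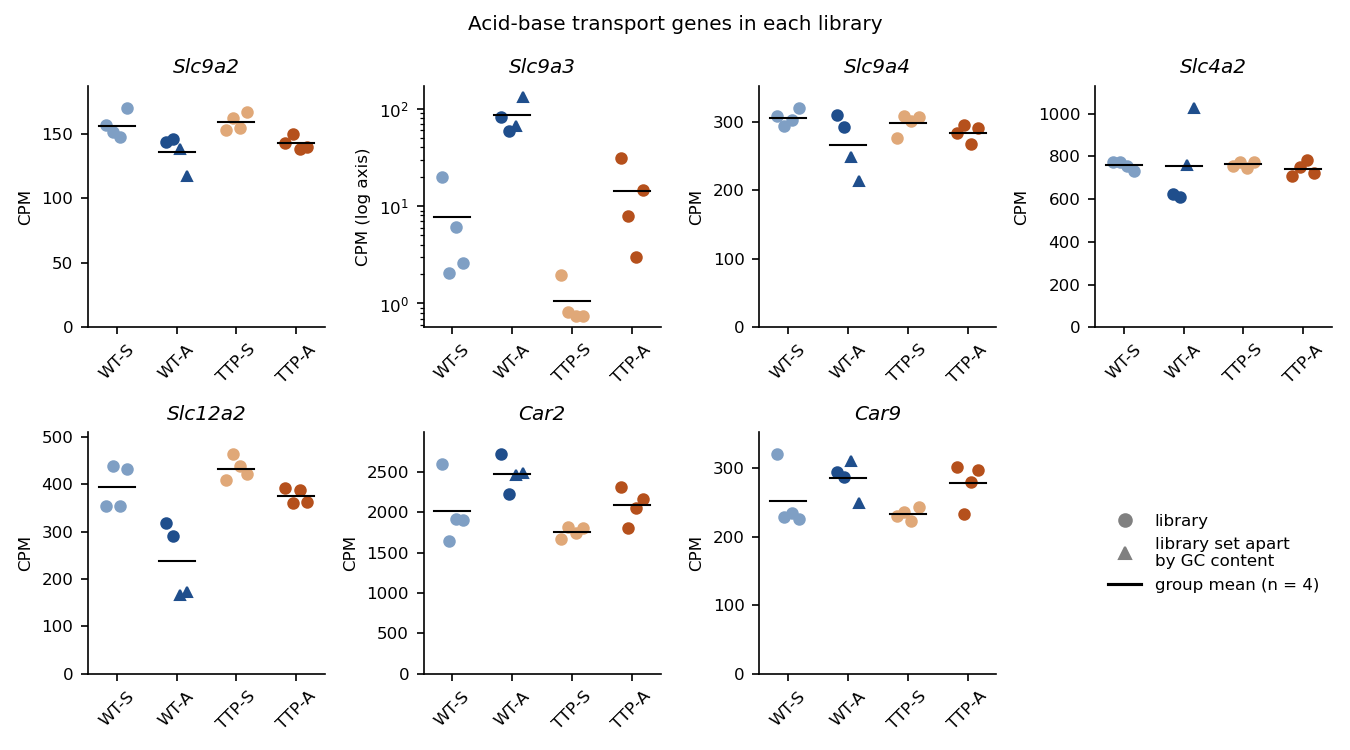
CPM of each gene (y axis) in the 16 libraries by group (x axis); points are libraries, triangles the pair set apart by GC content and bars the group means (n = 4), with a log axis for Slc9a3 only. Slc9a3 runs from 0.738 to 132 CPM, while the other genes stay within a few-fold, and the WT-A triangles lie low for Slc12a2 and Slc9a4.

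Slc9a3 encodes NHE3, the apical sodium-proton exchanger best known from the absorptive epithelium of the intestine and the proximal tubule of the kidney, where glucocorticoids are known to raise it. The gene lies on chromosome 13 (GRCm38.p6, chr13:74086255-74169442). Its promoter is shown because Slc9a3 varied most of the 7 genes. This window, 250 bases before to 50 after a start site that RefSeq gives within that span (GRCm38.p6, chr13:74121163-74121462, plus strand), is written 5′ to 3′ with GGGCGG, the GC box, and CACGTG, an E-box, in capitals on either strand.
Slc9a3 promoter: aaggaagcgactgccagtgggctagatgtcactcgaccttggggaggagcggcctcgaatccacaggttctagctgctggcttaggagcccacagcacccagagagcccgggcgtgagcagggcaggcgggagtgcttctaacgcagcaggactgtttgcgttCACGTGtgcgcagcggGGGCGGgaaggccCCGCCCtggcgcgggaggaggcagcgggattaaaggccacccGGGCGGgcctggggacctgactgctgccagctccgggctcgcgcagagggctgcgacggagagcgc
It held GGGCGG at 3 places, a motif present in 35.7% of 32851 promoter windows of 300 bases, and CACGTG at 1, present in 7.15%. CACGTG contains ACGTG on both strands. ACGTG and GCGTG, the forms of the core bound by hypoxia-inducible factors, were present in 19.6% and 32.4% of windows, and the Slc9a3 window held GCGTG at 1 further place. TGTTCT, a glucocorticoid receptor half-site (19.0% of windows), and TGAGTCA, an AP-1 motif (5.20%), were not among its letters on either strand. A match of letters is a description and not a bound site.

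Slc9a3 counts ranged from 15 to 3032 per library. In WT-S it was at 20.1, 2.04, 6.07 and 2.61 CPM in replicates 1 to 4, and in WT-A at 82.5, 59.6, 66.4 and 132 CPM. In TTP-S, replicates stood at 1.94, 0.823, 0.741 and 0.738 CPM, and those of TTP-A at 31.4, 7.92, 2.98 and 14.8 CPM. Every A library was above every S library of its genotype, and every WT library was above every TTPΔARE library of its treatment. The gene was picked on the WT-A and TTP-A libraries, so this is a description. Of all genes tested, 17.7% did not overlap between A and S in WT and 13.7% in TTPΔARE. Between genotypes 12.2% did not overlap in A and 6.74% in S. Within groups the levels were uneven: the highest library was 9.87 times the lowest in WT-S and 10.5 times in TTP-A, against 2.21 times in WT-A and 2.64 times in TTP-S. Of the summed level per kb of Slc9a2, Slc9a3 and Slc9a4, Slc9a3 made up 1.35% ± 1.45 in WT-S and 15.2% ± 6.63 in WT-A, against 0.197% ± 0.120 for TTP-S and 2.65% ± 2.26 for TTP-A (SD, n = 4).

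As a description, Slc9a3 was 11.3-fold higher in WT-A than in WT-S (log2 3.50, SE 0.67; 14 libraries 3.25), and 13.1-fold higher in TTP-A than in TTP-S (log2 3.71, SE 0.82). The value in WT rested in part on WT-S 1, without which it was 4.56. In TTPΔARE mice it was 2.98 without TTP-A 1. The level in TTP-A relative to WT-A, by which the gene was picked, was a log2 of -2.57 (SE 0.63; 14 libraries -2.31). The interaction, the difference between the treatment effects of the genotypes, was a log2 of 0.22 (SE 1.06), and its sign turned without WT-S 1 (-0.85) or TTP-A 1 (-0.52).

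The test that the choice of the gene left free, TTP-S against WT-S, gave a log2 of -2.79 (SE 0.85, edgeR adjusted p = 0.385, unadjusted p = 0.00493). The adjusted p did not pass 0.05, the threshold used throughout, and across the leave-one-out fits it ran from 0.196 to 0.978. DESeq2 called the gene (log2 -2.86, adjusted p = 0.0338). The fold rested on WT-S 1: without this library it was -1.72 (adjusted p = 0.978). The groups did not overlap, by 2.04 against 1.94 CPM, and 6.74% of all genes tested did not overlap in this comparison.

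Markers of other sources were read beside Slc9a3. Of 10 markers of intestinal enterocytes, the defining Sis was at 0 in every library, and Cdx1 and Cdx2 had at most 2 and 3 counts in any. The haemoglobin genes Hba-a1, Hba-a2, Hbb-bs and Hbb-bt were at 0 in every library too, so an exact 0 need not mean an absent cell type. Of the other enterocyte markers, Slc5a1 had mean levels in the A groups above those of S, from 3.75 ± 2.7 to 9.95 ± 3.68 CPM in WT and from 2.25 ± 0.509 to 8.45 ± 4.6 in TTPΔARE (SD, n = 4). Alpi was at 0.766 ± 0.441 CPM in WT-S and 2.37 ± 0.819 in WT-A, and at 1.6 ± 0.555 and 1.56 ± 0.9 in TTP-S and TTP-A. Fabp2 went the other way, from 4.41 ± 1.75 to 1.95 ± 0.774 CPM in WT and from 7.54 ± 1.75 to 2.98 ± 2.48 in TTPΔARE. The summed level of the 10, of which Apoa4 made up most, was 122 to 134 CPM in WT-S and 154 to 183 in WT-A, with 127 to 141 for TTP-S and 138 to 165 for TTP-A. All 6 markers of mucous neck and SPEM cells were detected in every group. They summed to 1040 to 3310 CPM in WT-S and 2560 to 3060 in WT-A, with 1110 to 1470 for TTP-S and 1580 to 4160 for TTP-A. Muc6 and Tff2 made up most of these sums. The means of Muc6, Cd44, Gkn3 and Aqp5 were higher in A than in S of both genotypes. Muc6 was at 1040 ± 892 and 1720 ± 142 CPM in WT, and 403 ± 92.5 and 1760 ± 1160 in TTPΔARE. Tff2 did not rise, at 537 ± 101 and 515 ± 130 CPM in WT and 575 ± 39.4 and 500 ± 77.1 in TTPΔARE. Dmbt1 had a higher mean in WT-A but a lower one in TTP-A. WT-S 1 had the highest sum of WT-S and TTP-A 1 that of TTP-A, the same libraries that were highest for Slc9a3. The reverse held in WT-A, where the highest sum, 3064 CPM in WT-A 2, was in the library with the lowest Slc9a3. In TTP-S the highest sum, 1475 CPM, was in TTP-S 4, which shared the lowest Slc9a3 count, 15, with TTP-S 3. TTP-S 1, the highest of TTP-S for Slc9a3, had the lowest sum (1114 CPM). The part of enterocytes and of these cells in the result was not tested. The 5 markers of kidney and adrenal tissue summed to at most 7.62 CPM in any library, most of it Star. The proximal tubule marker Slc34a1 had at most 3 counts in any library. Umod, of the kidney, was at 0.902 ± 0.37 CPM in WT-S and 2.72 ± 0.707 in WT-A, and at 0.614 ± 0.199 and 1.22 ± 0.512 in TTP-S and TTP-A (SD, n = 4), the same order of group means as Slc9a3; its part was not tested. Those of 8 squamous forestomach genes ran from 1.31 to 906 CPM and were highest in WT-A 2, the WT-A library with the lowest Slc9a3.

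By the Pearson r of log2 CPM over 16 libraries, the genes most like Slc9a3 of 13354 were Dpagt1 (0.968), Arl6ip5 (0.960) and Gpx2 (0.951), with 0.959, 0.952 and 0.932 in the 14 libraries. Dpagt1 starts N-glycan assembly and Gpx2 is a glutathione peroxidase of the gut epithelium. Gpx2 was at 127 CPM in WT-S and 302 in WT-A, with 86.5 for TTP-S and 153 for TTP-A. Its group means had the same order as those of Slc9a3, which its choice by r favours. With group means taken out, the r was 0.815 (Dpagt1), 0.853 (Arl6ip5) and 0.708 (Gpx2). These libraries share group and cell makeup, so the r values describe the libraries and are given with no test.

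Slc9a2 encodes NHE2, an exchanger whose loss in mice is known to lower parietal cell numbers, and Slc9a4 encodes NHE4, a basolateral exchanger of parietal cells. The genes are neighbours on chromosome 1 (GRCm38.p6, chr1:40681712-40768885 and chr1:40579986-40630731), 51.0 kb apart. In contrast to Slc9a3, both were even. Slc9a2 was at 156, 152, 147 and 170 CPM in WT-S and at 143, 146, 138 and 117 in WT-A. It was at 153, 163, 154 and 167 CPM in TTP-S and at 143, 150, 138 and 140 in TTP-A. Each A library was below each S library of its genotype, and the fall was small and did not pass the test: a log2 of -0.20 in WT (SE 0.07, edgeR adjusted p = 0.0508) and -0.16 in TTPΔARE (SE 0.07, adjusted p = 0.257). The WT value was -0.11 in the 14 libraries (adjusted p = 0.239). It passed in WT without WT-A 1 (adjusted p = 0.0291) or WT-A 2 (0.0319). Between genotypes it was 0.03 in S (SE 0.07, adjusted p = 0.998) and 0.07 in A (SE 0.07, adjusted p = 0.526).

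Slc9a4 was at 308, 295, 303 and 321 CPM in WT-S and at 310, 293, 249 and 214 in WT-A. The low WT-A values were those of the GC pair. It was at 277, 308, 301 and 308 CPM in TTP-S and at 284, 295, 268 and 292 in TTP-A, ranges that overlapped. The log2 difference was -0.20 in WT (SE 0.09, edgeR adjusted p = 0.113), but -0.02 (SE 0.06, adjusted p = 0.833) in the 14 libraries. In TTPΔARE it was -0.07 (SE 0.09, adjusted p = 0.807). Without WT-A 1, which leaves the pair as most of the group, the WT value was -0.28 (adjusted p = 0.0190).

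Slc4a2 was at 772, 776, 754 and 734 CPM in WT-S, 757, 776, 747 and 772 in TTP-S, and 709, 750, 782 and 724 in TTP-A. These 12 libraries lay close together, with a spread of at most 4.28% of the mean in a group. WT-A split instead, at 623 and 612 CPM in WT-A 1 and 2 and 761 and 1027 CPM in the GC pair. Over 16 libraries the difference of WT-A from WT-S was a log2 of -0.01 (SE 0.12, edgeR adjusted p = 0.974). In the 14 libraries, with WT-A 1 and 2 alone as WT-A, Slc4a2 fell by 0.30 (SE 0.05, adjusted p = 0.00377). There it was 0.26 higher in TTP-A than in WT-A (SE 0.05, adjusted p = 0.0201), against -0.03 (SE 0.12, adjusted p = 0.892) in 16. In TTPΔARE mice it differed by -0.04 (SE 0.12, adjusted p = 0.933), and in S the genotypes differed by 0.01 (SE 0.12, adjusted p = 0.999).

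Slc12a2 (NKCC1), the sodium-potassium-chloride cotransporter that loads chloride across the basolateral membrane of secretory cells, was the member that changed past the test in WT. It was at 355, 438, 354 and 433 CPM in WT-S and at 319, 292, 167 and 174 in WT-A. All WT-A libraries were below all WT-S libraries, and the lowest values were again those of the GC pair. Slc12a2 fell by a log2 of 0.73 (SE 0.17, edgeR adjusted p = 0.00952), and in the 14 libraries by 0.37 (SE 0.09, adjusted p = 0.0202). The call held whichever single library was dropped (highest adjusted p 0.0351, without WT-S 2). It did not hold in a fit of WT-A and WT-S alone (adjusted p = 0.0843).

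In TTPΔARE mice Slc12a2 was at 410, 463, 439 and 421 CPM in S and at 393, 362, 387 and 363 in A, and the ranges did not overlap. The log2 difference of -0.20 (SE 0.17, edgeR adjusted p = 0.642) did not pass in the fit of all groups, but did in a fit of TTP-A and TTP-S alone (adjusted p = 0.0357). TTP-A was higher than WT-A by 0.66 (SE 0.17, adjusted p = 0.0360), and no libraries overlapped. That call was lost in the 14 libraries (0.30, SE 0.09, adjusted p = 0.0915), in a fit of these groups alone (adjusted p = 0.175), and in the 6 fits without WT-A 3, WT-A 4 or any one TTP-A library (highest adjusted p 0.106, without WT-A 3). The interaction was 0.53 (SE 0.23, adjusted p = 0.309), so a difference between the genotypes in the response did not pass the test.

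**Figure D2:**
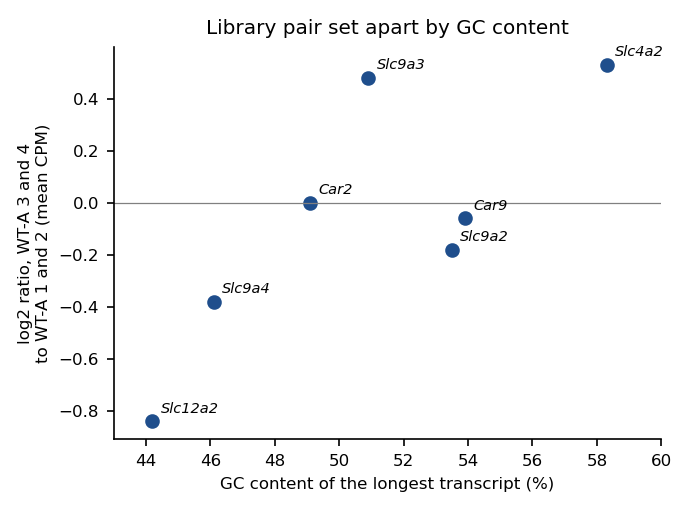
Log2 ratio of mean CPM in WT-A 3 and 4 to that in WT-A 1 and 2 (y axis) against the GC content of the longest transcript in percent (x axis), 1 point for each of the 7 genes. Slc12a2, at 44.2% GC, lies at -0.84 and Slc4a2, at 58.3%, at 0.53.

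Within WT-A the members lowest and highest in GC content lay at the ends, and those between did not follow it. The pair stood at 0.558 times the level of WT-A 1 and 2 for Slc12a2 (GC content 44.2%) and at 0.769 times for Slc9a4 (46.1%). It stood at 1.0 times for Car2 (49.1%), 0.884 for Slc9a2 (53.5%), 0.961 for Car9 (53.9%) and 1.45 for Slc4a2 (58.3%). Slc9a3 (50.9%) was at 1.39 times. Slc12a2 and Slc9a4, the members lowest in GC content, were the ones most below 1, and Slc4a2, the highest, was the one most above it. The part of GC content in each member's result was not tested.

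Car2, the abundant cytosolic carbonic anhydrase of gastric glands and surface cells, and Car9, a membrane-bound enzyme of the gastric epithelium and a known target of hypoxia-inducible factors, did not pass the test in any of the 5 comparisons. Car9 lies on chromosome 4 (GRCm38.p6, chr4:43507026-43513729). Its promoter from RefSeq (GRCm38.p6, chr4:43506776-43507075, plus strand) is shown for the known hypoxia response; capitals mark ACGTG and TGAGTCA on either strand.
Car9 promoter: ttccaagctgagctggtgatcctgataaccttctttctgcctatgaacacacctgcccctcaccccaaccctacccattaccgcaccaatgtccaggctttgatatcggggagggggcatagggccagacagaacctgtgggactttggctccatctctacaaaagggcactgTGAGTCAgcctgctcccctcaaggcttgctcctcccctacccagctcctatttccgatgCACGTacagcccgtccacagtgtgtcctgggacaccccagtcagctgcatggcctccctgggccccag
It held ACGTG at 1 place, on the minus strand beginning 18 bases before the start site, and TGAGTCA at 1. The other motifs searched in the Slc9a3 window were not among its letters. Windows for Slc9a2, Slc9a4 and Car2 were not used here.

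Car2 was at 2598, 1641, 1914 and 1905 CPM in WT-S and at 2717, 2232, 2466 and 2487 in WT-A. It was at 1666, 1824, 1746 and 1802 CPM in TTP-S and at 2315, 1809, 2059 and 2163 in TTP-A. WT-S 1 lay among the WT-A libraries, and TTP-A 2 among those of TTP-S. The log2 difference was 0.30 in WT (SE 0.11, edgeR adjusted p = 0.0746) and 0.25 in TTPΔARE (SE 0.11, adjusted p = 0.300), and the 14 libraries gave an adjusted p of 0.194 in WT. Without WT-S 1 the WT value was 0.44 and passed (adjusted p = 0.00478). Between genotypes Car2 was at -0.20 in S (SE 0.11, adjusted p = 0.772) and -0.25 in A (SE 0.11, adjusted p = 0.174).

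Car9 was at 320, 229, 235 and 226 CPM in WT-S and at 295, 287, 310 and 249 in WT-A. It was at 230, 235, 222 and 243 CPM in TTP-S and at 302, 233, 280 and 298 in TTP-A. WT-S 1 was the highest of all 16 libraries. The log2 difference was 0.18 in WT (SE 0.11, edgeR adjusted p = 0.238) and 0.26 in TTPΔARE (SE 0.11, adjusted p = 0.243). In the 14 libraries the WT value was 0.21 (adjusted p = 0.306). Without WT-S 1 it was 0.31 in WT (adjusted p = 0.0221). The genotypes differed by -0.12 in S (SE 0.11, adjusted p = 0.927) and by -0.04 in A (SE 0.11, adjusted p = 0.840).

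**Figure D3:**
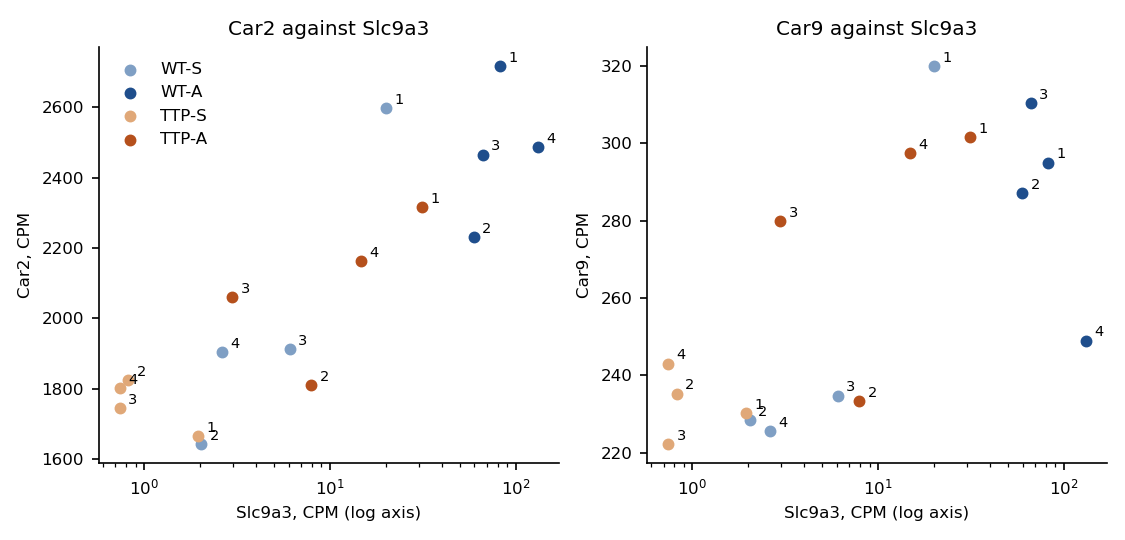
CPM of Car2 (left) and Car9 (right) on the y axes against Slc9a3 in CPM on a log x axis; each point is a library, coloured by group and numbered by replicate. WT-S 1 lies at Car2 and Car9 levels above the other WT-S libraries in both panels, at 20.1 CPM of Slc9a3, 2598 of Car2 and 320 of Car9.

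Slc9a3, Car2 and Car9 shared their leading libraries in 2 groups. WT-S 1 was the highest of WT-S for all 3 genes, followed by WT-S 3 for all 3. TTP-A 1 was the highest of TTP-A for all 3, followed by TTP-A 4. WT-S 1 had the lowest chief (75490 CPM), parietal (21960) and surface mucous (60140) marker sums of WT-S, the last close to WT-S 3 (60480). TTP-A 1 had the lowest chief (91350 CPM), parietal (19750) and surface mucous (34410) sums of TTP-A. The part of these cell types was not tested. In WT-A and TTP-S the leading library differed from gene to gene. The genes most like Car2 over 16 libraries were Slc44a4 (Pearson r 0.968), Sh3bgrl3 (0.961) and Fut2 (0.956), the last a fucosyltransferase of mucous cells. Those most like Car9 were Galnt10 (0.948), Slc12a8 (0.948) and the sodium-glucose cotransporter Slc5a1 (0.931). Slc12a2 was most like Slc16a7 (0.992), Msi2 (0.990) and Psd3 (0.984). Slc9a2 was most like Tfcp2l1 (0.936), Fam13a (0.913) and Pdcd4 (0.907). Slc9a4 was most like Ofd1 (0.944), Rictor (0.941) and Tax1bp1 (0.940), and without the GC pair these fell to 0.825, 0.717 and 0.687. Slc4a2 was most like Cyc1 (0.965), Ndufs8 (0.944) and Ddx49 (0.940).

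Of the 6 members that could be tested, 1 was lower (Slc12a2) and 0 higher in WT-A than in WT-S, where 18.8% of all genes tested were called, 9.8% higher and 8.99% lower. The count is no larger than that background. At an unadjusted p under 0.05 there were 4 members, against 36.5% of all genes. In the 14 libraries 2 of 6 were called (Slc12a2 and Slc4a2, both lower), against 10.4%. In TTPΔARE 0 of 6 were called by edgeR and by DESeq2, and 2.9% of all genes were called, 1.55% higher and 1.35% lower (14 libraries 0 of 6 and 6.26%). There, 3 members had an unadjusted p under 0.05, against 15.9%. The groups did not overlap for Slc9a2 and Slc12a2 in either genotype, 2 of 6 members each time, against 17.7% of all genes in WT and 13.7% in TTPΔARE. The median log2 over the 6 members was -0.10 in WT and -0.06 in TTPΔARE, and over all genes tested 0.009 and -0.001.

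Between genotypes, 0 of 7 members were called in S by edgeR, and 0.0325% of all genes were called (14 libraries 0 of 7 and 0.365%). DESeq2 called 1 (Slc9a3), the member with an unadjusted p under 0.05, against 7.49% of all genes. In A, 1 of 6 members (Slc12a2) was called, higher in TTP-A, and it was the 1 whose groups did not overlap. Of all genes 5.17% were called there, 2.87% higher and 2.3% lower, and 12.2% did not overlap. In the 14 libraries Slc4a2 was called in its place, against 1.87%, and over 16 libraries 2 members (Slc12a2 and Car2) had an unadjusted p under 0.05, against 27.5%. In the interaction 0 of 6 members were called by edgeR and by DESeq2, and 0.0585% of all genes (14 libraries 0 of 6 and 0.295%). There, 1 member (Slc12a2) had an unadjusted p under 0.05, against 15.2%.

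**Figure D4:**
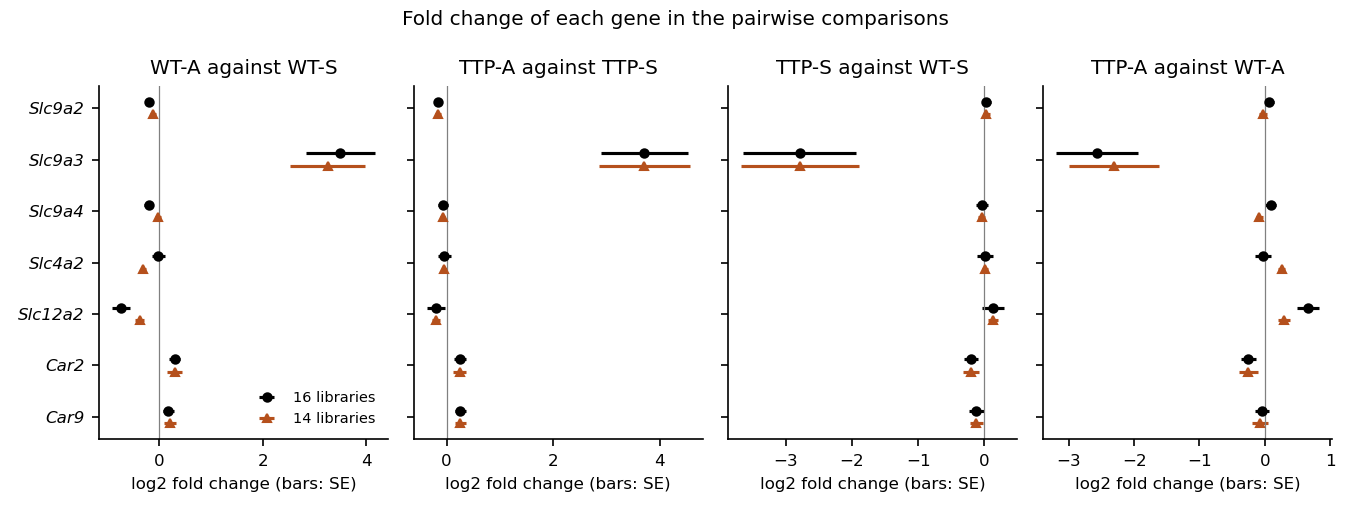
Log2 fold change (x axis) of each of the 7 genes (y axis) in the 4 pairwise comparisons, with SE bars; circles are from all 16 libraries and triangles from the 14 without the GC pair. Slc9a3 lies beyond 2 in size in every panel, and Slc12a2 and Slc4a2 differ most between circles and triangles in the panels with WT-A.

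Of 55 other listed genes of acid-base transport, 44 were tested, and 16 were called between WT-A and WT-S, 5 higher and 11 lower, which is 36.4% of those tested against 18.8% of all genes. In the 14 libraries 4 were higher and 7 lower, against 10.4% of all genes, and 8 of the 16 were among them. Of the 16, 9 stayed called whichever single library was dropped, and the count was 9 without WT-S 2 and 9 when WT-A and WT-S were fitted alone. The lists were made with earlier results of these data known and 4 of their genes are also parietal markers, so the share is a description.

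The largest falls were in genes of potassium and anion transport. Kcnj16, a potassium channel subunit, fell from 508 ± 43.9 to 275 ± 53.9 CPM (log2 -0.89, SE 0.12, edgeR adjusted p = 0.00100), and Kcnj15, a potassium channel of the parietal cell, from 780 ± 70.4 to 560 ± 31.4 CPM (-0.48, adjusted p = 0.00166; SD, n = 4). Both were also called in the 14 libraries (adjusted p = 0.00402 and 0.00945). Slc26a7, a basolateral chloride-bicarbonate exchanger of parietal cells, fell by a log2 of 0.91 from 20.6 ± 5.97 CPM (SE 0.20, adjusted p = 0.00748; 14 libraries -0.78, adjusted p = 0.0524). Kcne2, the partner of the channel Kcnq1, fell by 0.45 (adjusted p = 0.00681; 14 libraries 0.0102). The proton pump subunit Atp4a, the most abundant of the listed genes, was at 12900 ± 1160 CPM in WT-S and 11400 ± 2000 in WT-A and did not pass in 16 libraries (-0.18, adjusted p = 0.215), but did in 14 (-0.36, adjusted p = 0.0221). The 7 parietal markers of the table summed to 22000 to 26400 CPM in WT-S and 17200 to 26600 in WT-A. The upper end was WT-A 4 of the GC pair, and the other WT-A libraries (17230 to 19850 CPM) lay below every WT-S library (lowest 21960). The sum of the 6 surface mucous markers, of which Gkn1 and Gkn2 made up most, was lower in every A library than in any S library of its genotype, though single markers such as Tff1 and Muc5ac overlapped in WT. It was at 60100 to 68800 CPM in WT-S against 41300 to 59400 in WT-A, and at 63400 to 68600 in TTP-S against 34400 to 60600 in TTP-A. The sum of the 6 chief cell markers, of which Pgc made up most, was 75500 to 150000 CPM in WT-S and 47200 to 101000 in WT-A. The means of Pgc, Chia1 and Bhlha15 were lower in WT-A than in WT-S. Cym was alike (4.87 ± 2.85 and 4.81 ± 1.42 CPM), and Pga5 was higher (77.8 ± 13.1 in WT-S, 132 ± 21.8 in WT-A). The sum of the 6 smooth muscle markers was higher in every WT-A library (7020 to 8580 CPM) than in any WT-S library (6000 to 6800). Single markers such as Smtn and Des overlapped in WT. The sums of TTP-S (5230 to 7310) and TTP-A (5690 to 6840) overlapped. The part of these cell types in the falls and rises of the listed genes was not tested.

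Of 10 carbonic anhydrases tested, 2 were higher and 3 lower, where 9.8% and 8.99% of all genes were called, and in the 14 libraries 1 was higher and 0 lower. The lower ones were Car8 (log2 -0.45, edgeR adjusted p = 0.0198), Car13 (-0.44, adjusted p = 0.0110) and Car5b (-0.23, adjusted p = 0.0179), and none of them was called in the 14 libraries. There Car5b was of like size (-0.21, adjusted p = 0.0668), while Car8 (-0.21, adjusted p = 0.140) and Car13 (-0.23, adjusted p = 0.0621) were nearer 0. Car12, a membrane-bound carbonic anhydrase, rose from 3.20 ± 1.06 to 11.8 ± 6.61 CPM (log2 1.89, SE 0.49, edgeR adjusted p = 0.0178; 14 libraries 0.0113), and was no longer called in 2 of 8 leave-one-out fits (highest adjusted p 0.0581, without WT-S 2). Car4, anchored to the outer membrane, rose by 0.60 (adjusted p = 0.0144), and in the 14 libraries its value was 0.58 (adjusted p = 0.0561). Slc12a4, a potassium-chloride cotransporter, rose by 0.49 (adjusted p = 0.00384; 14 libraries 0.0281), and Ano1, a chloride channel, by 0.39 (adjusted p = 0.00436; 14 libraries 0.0108). None of the 7 further sodium-proton exchangers was called by edgeR, and 0 had an unadjusted p under 0.05. Among the 6 partner proteins of the exchangers, Chp1, a cofactor, fell by 0.19 (adjusted p = 0.0219; 14 libraries -0.16, adjusted p = 0.0990), and Ezr, which anchors NHE3 to actin, was at 2290 ± 40.7 and 2300 ± 285 CPM. Of the most abundant genes of the remaining lists, Slc26a9, a chloride transporter of the surface epithelium, fell by 0.44 (adjusted p = 0.0167; without WT-S 2 0.0646; 14 libraries 0.00918). Slc12a7 was at 335 ± 36.8 CPM in WT-S and 319 ± 15.1 in WT-A, and Car3 at 59.6 ± 13.7 and 63.8 ± 28.0.

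**Figure D5:**
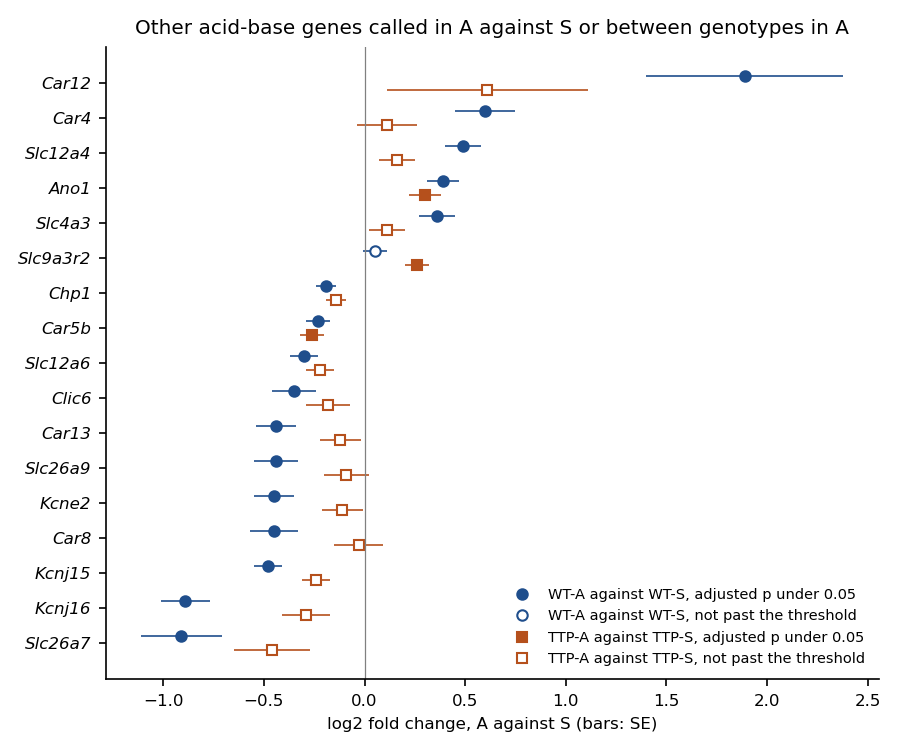
Log2 fold change of A against S with SE bars (x axis) for the 17 other acid-base genes called in A against S or between genotypes in A (y axis); circles are WT, squares TTPΔARE, and filled symbols have an edgeR adjusted p under 0.05. Car12 lies highest and Slc26a7 lowest in WT, at 1.89 and -0.91.

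In TTPΔARE mice 3 of the 44 genes were called, 2 higher and 1 lower, against 2.9% of all genes. They were Ano1 (log2 0.30, SE 0.08, edgeR adjusted p = 0.0446), the NHE3 scaffold Slc9a3r2 (0.26, SE 0.06, adjusted p = 0.0378) and the mitochondrial carbonic anhydrase Car5b (-0.26, SE 0.06, adjusted p = 0.0303). Slc9a3r2 rose from 96.9 ± 4.89 to 116 ± 5.21 CPM (SD, n = 4). Slc9a3r2 lost its call in 7 of 8 leave-one-out fits, and Ano1 and Car5b in 6 of 8 each. The count fell to 0 without TTP-S 2, TTP-S 3, TTP-S 4, TTP-A 1 or TTP-A 4, and to 1 without TTP-S 1 or TTP-A 3. The highest adjusted p-values, without TTP-A 1, were 0.179 (Ano1), 0.148 (Slc9a3r2) and 0.125 (Car5b). The 6 leukocyte markers, of which Ptprc made up most, summed to 10.3 to 16.6 CPM in TTP-S and 20.3 to 29.4 in TTP-A, which did not overlap, and to 15.4 to 18.6 in WT-S and 15.5 to 26 in WT-A, which did. Their part in the result was not tested. TTP-A was higher than WT-A in 4 genes and lower in 0, which is 9.09% of those tested, against 5.17% of all genes called and 2.87% higher. They were Kcnj16 (0.64, adjusted p = 0.0149), Car8 (0.43, adjusted p = 0.0486), Kcne2 (0.38, adjusted p = 0.0372) and Kcnj15 (0.31, adjusted p = 0.0311). None of these 4 was called in the 14 libraries, where 3 others were higher and 1.87% of all genes were called. There the values of Kcne2 (0.36, adjusted p = 0.0587) and Kcnj15 (0.28, adjusted p = 0.113) were of like size, and those of Kcnj16 (0.44, adjusted p = 0.0615) and Car8 (0.19, adjusted p = 0.247) were smaller. Over 16 libraries, leaving out TTP-A 3 gave a count of 0, leaving out WT-A 3, TTP-A 2 or TTP-A 4 a count of 1, and leaving out WT-A 1 a count of 11. In S 0 of the 44 genes differed between genotypes by edgeR or DESeq2 and 4 had an unadjusted p under 0.05, against 7.49% of all genes. In the interaction 0 were called by edgeR and 1 by DESeq2, with 10 at an unadjusted p under 0.05, against 15.2% of all genes.

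Known targets of glucocorticoids and of hypoxia were also read, from lists of 10 each. Of the glucocorticoid targets, 6 were lower and 2 higher in WT-A than in WT-S, and 6 were lower and 0 higher in TTP-A than in TTP-S, against 18.8% and 2.9% of all genes called. In the 14 libraries the same glucocorticoid and hypoxia targets were called in WT except Zbtb16 (adjusted p = 0.0507). Sgk1, a kinase known to act on NHE3, fell from 283 ± 69.4 to 109 ± 12.5 CPM in WT (log2 -1.38, SE 0.24, edgeR adjusted p = 0.00272) and from 325 ± 48.3 to 171 ± 74.4 in TTPΔARE (-0.93, SE 0.24, adjusted p = 0.0481). The TTPΔARE call was lost in 7 of 8 leave-one-out fits (highest adjusted p 0.169, without TTP-A 1). Of the hypoxia targets, 2 were called higher in WT and 1 in TTPΔARE, and the rest did not pass. The 2 of 10 in WT is near the 18.8% of all genes called there, and no result about hypoxia is read from it. Ankrd37 was the other gene called in WT (0.78, adjusted p = 0.0302, and called in 3 of 8 leave-one-out fits). Egln3, an oxygen-sensing prolyl hydroxylase, was the gene called in both (WT 0.63, adjusted p = 0.0397; TTPΔARE 1.06, adjusted p = 0.0154). In WT it was no longer called in 6 of 8 leave-one-out fits (highest adjusted p 0.105, without WT-S 4), and in TTPΔARE in 4 of 8 (highest 0.0626, without TTP-A 1).

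Because TTP binds AU-rich elements, the annotated 3′ untranslated regions of the 7 genes were searched for TATTTAT, the core of its binding motif in DNA letters, on the transcript strand. It occurred once each in Slc9a2, Slc9a3 and Slc12a2 and was not among the letters of the others; 27.5% of 20918 coding genes held it. The stretches of Slc9a2 (GRCm38, chr1:40768322-40768344, plus strand) and Slc9a3 (chr13:74169073-74169095, plus strand) are shown 5′ to 3′ with the motif in capitals.
Slc9a2 stretch: ctcagattTATTTATgaaaaaaa
Slc9a3 stretch: agaatttcTATTTATttaatact
The longer TTATTTATT, held by 7.60% of genes, was in none of the 7. Long regions hold more matches, and those of Slc9a3 (2628 bases), Slc12a2 (2770) and Slc9a2 (1274) exceeded the median of 939 bases. With Zfp36 higher in TTPΔARE mice, the 3 genes had log2 differences between TTP-S and WT-S of 0.03 (Slc9a2, SE 0.07), -2.79 (Slc9a3, SE 0.85) and 0.13 (Slc12a2, SE 0.17). None passed the edgeR test (lowest adjusted p 0.385). TTP-A differed from WT-A by 0.07 (Slc9a2) and 0.66 (Slc12a2, edgeR adjusted p = 0.0360, 14 libraries 0.0915), and by -2.57 for Slc9a3, picked on this comparison. Members without the motif lay at -0.04 (Slc9a4), 0.01 (Slc4a2), -0.20 (Car2) and -0.12 (Car9) in S. In A they lay at 0.09, -0.03, -0.25 and -0.04.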

How the data were processed

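RNA was measured by sequencing in 16 libraries in 4 groups taken from the sample titles. The deposited data are whole-number read counts for each gene symbol, in 1 table made by the authors. Per the submitters' processing notes it involved STAR 2.7.0f, featureCounts of Subread 1.6.4, build mm10 and DESeq2, with no role given. Annotation, strandedness and filters are not given in the sources used here, so overlapping genes could share reads. Totals of 17453930 to 25849472 counts limit precision only for low genes such as Slc9a3 in TTP-S (15 to 48 counts).

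Counts were analysed with edgeR 4.0.16 (R 4.3.3): filterByExpr, TMM scaling, a quasi-likelihood fit with 1 mean per group over 16 libraries, and Benjamini-Hochberg adjustment over 15385 genes, with a call at an adjusted p under 0.05. Each SE is the absolute log2 fold change divided by the root of its F statistic. The procedure was tested on simulated data. GC content and length came from the longest GENCODE M21 transcript (98.9% of tested genes matched), and libraries with a Spearman rho above 0.5 were treated as apart. Promoters came from RefSeq on GRCm38.p6 and untranslated regions from GENCODE M21.

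Alternatives were DESeq2 1.42.0 size factors, no filter on low counts, the DESeq2 Wald test, a fit restricted to the groups of each contrast, a block for the replicate number, 14 libraries, and leaving out each library. Named were the 7 members; of other acid-base genes, the called ones of largest change (up to 4 per direction and comparison) and the most abundant of each list (1 is not reported here); and 3 genes most like each member, among those with a mean of at least 1 CPM (log2 CPM with a prior count of 2). Chp1, Car13, Zbtb16, Sgk1 and Egln3 were chosen after their values were seen. Members, lists and the 14-library alternative were chosen with earlier results of these data known. Within groups, chi-square divided by its degrees of freedom was 4.69 to 89.5 between libraries, and each was kept as a replicate.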

Additional observations from a re-analysis of the deposited data

Results flagged for a closer look

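Over 28 sets of 1 member in 1 group, 2 held a library far from the others by Dixon's test at the 95% level, and chance flags about 1 in 20 sets of 4. Slc9a3 was at 1.94 CPM in TTP-S 1, against 0.738 to 0.823 CPM in the other libraries of TTP-S. Car9 was at 320 CPM in WT-S 1, against 226 to 235 CPM in the other libraries of WT-S. The same library led WT-S for Slc9a3 (20.1 CPM) and Car2 (2598 CPM).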

How the results depend on the processing

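The count of 1 member called between WT-A and WT-S became 2 with DESeq2 size factors or the DESeq2 Wald test (Slc9a2 and Slc12a2), with the replicate block (Slc12a2 and Car2, adjusted p = 0.0405) and in 14 libraries (Slc12a2 and Slc4a2), and 0 when WT-A and WT-S were fitted alone. Leaving out 1 library gave 1 to 3. A fit of only the groups compared gave 1 for TTP-A against TTP-S (from 0) and 0 for TTP-A against WT-A (from 1, leave-one-out range 0 to 1), and the Wald test gave 1 for TTP-S against WT-S (from 0). For the other acid-base genes, the fit of only the groups compared moved 16 to 9 in WT, 3 to 6 in TTPΔARE and 4 to 0 between genotypes in A. The 14 libraries moved 3 to 5, and the Wald test moved the interaction from 0 to 1. Their leave-one-out ranges were 9 to 19, 0 to 4, 0 to 11 and, for the interaction, 0 to 1. The cause of each move was not tested.

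Signs turned for small values. In 14 libraries TTP-A against WT-A became -0.0189 for Slc9a2, -0.0829 for Slc9a4 and 0.264 for Slc4a2, and the interaction -0.0441, -0.0449 and 0.256. Leave-one-out ranges that crossed 0 were, for Slc4a2, -0.189 to 0.083 (WT), -0.00729 to 0.019 (genotypes in S), -0.117 to 0.156 (in A) and -0.124 to 0.148 (interaction). For Car9 they were -0.165 to 0.019 (in S), -0.0975 to 0.0351 (in A) and -0.0565 to 0.15 (interaction). They were -0.197 to 0.0326 for the interaction of Car2, -0.00086 to 0.0693 (in S) and -0.0245 to 0.0752 (interaction) for Slc9a2, and -0.851 to 0.702 for the interaction of Slc9a3.

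The replicate numbers did not pair the libraries. Deviations of same-numbered libraries correlated by -0.513 to 0.331, with 7 of 24 pairs over 0.1, and 3 of 16 libraries correlated best with their own number. The block turned the Slc9a3 interaction to -0.262 and, beyond Car2, changed no member's call. With 4 libraries a group, adjusted p-values near the threshold moved with single libraries.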
